A study of Mus musculus with 11 samples.

Results

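The vascular endothelial growth factor (Vegf) system was examined in mouse cells as 9 genes: the 4 ligand genes Vegfa, Vegfb, Vegfc and Pgf, and 5 receptor genes, the receptor tyrosine kinases Flt1, Kdr and Flt4 and the co-receptors Nrp1 and Nrp2. They were taken by exact gene symbol from 23238 genes. That rule used no measured value, but earlier results of these data were known when the genes were chosen. All 9 were present in each of the 11 libraries, none was listed at 0, and all 9 passed the filter on low values that left 18248 genes to test. The lowest value of any of them was Kdr at a normalized count of 4.35.

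RNA sequencing was done on cells labelled as cavernous endothelial cells, the cells that line the blood spaces of the erectile tissue, taken from mouse corpus cavernosum and exposed for 5 days. Libraries came from cells in high glucose with Hsp70, a heat shock chaperone protein (n = 4), in high glucose (n = 4) and in normal glucose (n = 3). All groups grew in M199 medium with fetal bovine serum, antibiotics and heparin; glucose concentrations, the kind and dose of Hsp70, and the strain, age, genotype and number of mice do not stand in the labels. The names of the deposited files also sort the libraries into sets: 1 library of every group was in each of sets 3, 4 and 5, and set 2 was 1 library of high glucose + Hsp70 and 1 of high glucose. Nothing says that replicates were separate cultures or animals, so p-values measure only the spread between these samples.

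Vegf ligands are secreted proteins that drive the growth, survival and permeability of vessels. Vegfa signals mainly through the kinase Kdr (VEGFR2), Vegfb and Pgf bind the kinase Flt1 (VEGFR1), which also exists as a soluble decoy, and Vegfc acts through Flt4 (VEGFR3) on lymphatic vessels. Nrp1 and Nrp2 are co-receptors that bind Vegf ligands as well as class 3 semaphorins and are also made by cells other than endothelium. In erectile tissue, Vegf signalling through endothelium leads to nitric oxide synthesis by Nos3, the endothelial nitric oxide synthase.

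The libraries of set 3 stood apart from the rest, and endothelial markers were uneven among the sets. Normalized counts summed to 24.8 to 27.8 M per library. Pecam1, the endothelial adhesion protein CD31, was at log2 values of 8.86 to 9.07 in the 3 libraries of set 3, against 2.68 to 4.51 in the other 8. Cdh5, the cadherin of endothelial junctions, was at 9.01 to 9.52 in set 3, against 5.68 to 8.26 elsewhere. Of the 20 endothelial markers, Tie1, Cldn5, Robo4, Sox17 and Sox18 were listed at 0 in at least 1 of the 2 libraries of set 2, and Tie1, the highest of these 5 in sets 4 and 5, was at log2 values of 0.13 to 2.33 there, against 6.34 to 6.65 in set 3. Median normalized counts of the 20 endothelial markers were 103.5 in set 3, against 15.2 in the other sets, and those of the 12 fibroblast markers 18620 in set 3, against 9840. Dcn, a fibroblast marker, was at 17.08 to 17.63 in set 3 and 15.17 to 16.02 elsewhere, above Pecam1 and Cdh5 in every library. These markers thus do not show any set to be mainly endothelial. As RNA levels not set per length, they also do not give the share of any cell type. Macrophage markers also moved with set 3: Adgre1 was at 9.14 to 9.52 in set 3, against 1.13 to 3.98 elsewhere, and C1qa, C1qb, Tyrobp and Fcer1g, 4 of the 12 macrophage and leukocyte markers, were listed at 0 in at least 1 library of set 2. These 4 were low in sets 4 and 5 as well, at log2 values of 0.0075 to 3.32, against 4.74 to 7.06 in set 3. In such bulk samples fewer cells of a type and less RNA per cell cannot be told apart, and the part of this make-up in the results below was not tested. Each group held 1 library of set 3.

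The sequences just upstream of 3 of the genes are shown because these genes gave the contrasts the results turn on: Kdr and Flt1 are both kinases that bind Vegfa but were distributed differently among the libraries, and Vegfb is the ligand whose value differed most between high and normal glucose. Each run is the 250 bases before the transcription start on the gene's strand, from RefSeq on GRCm38.p6. Capitals mark matches on either strand to GGGCGG, the GC box core of the factor Sp1, or to AGGAAG, an ETS core. The AGGAAG matches overlapped no GGGCGG match, and 2 of the GGGCGG matches before Vegfb adjoin.
Kdr (chr5:75978456-75978705, minus strand): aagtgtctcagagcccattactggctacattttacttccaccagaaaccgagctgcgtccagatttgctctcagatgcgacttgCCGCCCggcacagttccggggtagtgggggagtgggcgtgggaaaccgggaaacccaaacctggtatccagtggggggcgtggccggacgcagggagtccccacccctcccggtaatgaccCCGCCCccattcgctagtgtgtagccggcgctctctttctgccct
Flt1 (chr5:147726012-147726261, minus strand): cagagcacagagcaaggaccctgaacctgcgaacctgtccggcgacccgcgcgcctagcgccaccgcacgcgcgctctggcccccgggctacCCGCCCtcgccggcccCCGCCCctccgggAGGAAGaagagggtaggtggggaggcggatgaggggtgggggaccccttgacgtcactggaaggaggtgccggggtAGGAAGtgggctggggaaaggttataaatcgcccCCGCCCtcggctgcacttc
Vegfb (chr19:6987652-6987901, minus strand): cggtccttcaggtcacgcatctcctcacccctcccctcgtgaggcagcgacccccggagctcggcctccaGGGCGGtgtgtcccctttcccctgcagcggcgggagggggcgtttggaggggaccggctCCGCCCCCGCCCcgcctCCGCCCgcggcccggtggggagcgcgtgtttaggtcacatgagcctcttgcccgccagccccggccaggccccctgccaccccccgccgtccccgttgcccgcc
The GC box core occurred 2 times before Kdr, 3 times before Flt1 and 4 times before Vegfb, and 32.7% of 32851 mouse promoter windows held it. AGGAAG occurred 2 times before Flt1 and had no match before Kdr or Vegfb, and 29.5% of all windows held it. ACGTG, a form of the core of hypoxia response elements, had no match in the 3 runs, and 16.6% of all windows held it. Other forms of that core were not searched. These are letter matches only, in these windows.

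Levels can be set against each other between genes only per length, here as the normalized count per kilobase of the longest coding transcript, with all 11 libraries pooled. Vegfa, at 2818 ± 301 per kilobase (SD, n = 11), and Nrp2, at 2711 ± 552, were the most abundant. Vegfa lay above Nrp2 in 6 of the 11 libraries, so these 2 were not separated with this length. Vegfb followed at 1444 ± 344, below Nrp2 in 11 of 11 libraries, and Nrp1 at 944 ± 153, below Vegfb in 9 of 11. Vegfc averaged 372.5 ± 30.9 and Pgf 150 ± 66.0, each below its predecessor in 11 of 11 libraries.

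The 3 receptor kinases were far lower than the co-receptors on this scale. Flt4 averaged 20.8 ± 7.03 per kilobase and Flt1 16.8 ± 5.92, with Flt4 above Flt1 in 7 of 11 libraries, which did not separate them with this length. Kdr had a median of 2.48 per kilobase over the 11 libraries, and it lay below Flt1 in 8 of 11. With the union of all annotated exons as length, which counts retained introns, Nrp1 was at 346.9 per kilobase, below Vegfc at 372.5, and the other genes kept their places. With that length Vegfa lay above Nrp2 in 11 of 11 libraries, at 2270 against 1539 per kilobase, and Flt4 above Flt1 in 10 of 11, at 15.8 against 8.57. Figf, the gene of Vegf-D and not one of the 9, averaged 1783 ± 279 per kilobase and exceeded Vegfb in 7 of 11 libraries.

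**Figure D1:**
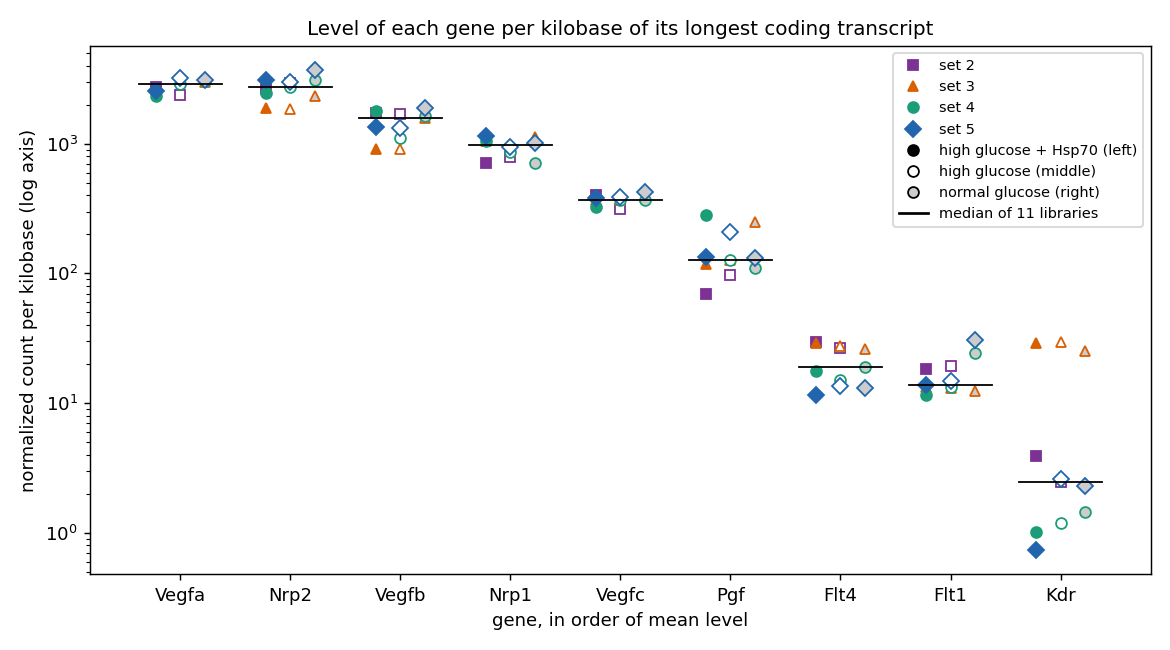
Level of each of the 9 genes in each of the 11 libraries, as normalized count per kilobase of the longest coding transcript (log axis), with genes in order of mean level; marker shape and colour give the file set, fill gives the group, and the bar is the median over libraries. Vegfa and Nrp2 are highest, and Kdr has a median of 2.48 with the 3 libraries of set 3 well above the other 8.

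Vegfa held the largest share of the summed ligand level per kilobase in every library, at 49.7% to 68.3%. Vegfa made up 57.2 ± 6.61% in high glucose + Hsp70 (SD, n = 4), 62.1 ± 6.60% in high glucose (n = 4) and 57.6 ± 1.46% in normal glucose (n = 3). Vegfb made up 31.3 ± 6.58% in high glucose + Hsp70, 27.3 ± 7.50% in high glucose and 31.9 ± 1.76% in normal glucose. Over all 11 libraries Vegfc held 6.91% to 9.03% and Pgf 1.41% to 5.92%. In the summed receptor level, Nrp2 held 63.0% to 80.4% and Nrp1 18.4% to 34.6%. The kinases held little: Flt4 0.267% to 0.959%, Flt1 0.320% to 0.643% and Kdr 0.0171% to 1.01%.

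Vegfa (chr17:46016993-46032369 on GRCm38, the mm10 build, minus strand), the main angiogenic ligand, had the smallest spread of the 9 genes in normal glucose (SD 0.03, n = 3). On the scale log2(normalized count + 1), used for all values below, it was at 13.21, 13.17, 12.99 and 13.10 in the high glucose + Hsp70 libraries of sets 2, 3, 4 and 5. High glucose libraries of the same 4 sets were at 13.00, 13.36, 13.29 and 13.44, and normal glucose libraries of sets 3, 4 and 5 at 13.33, 13.36 and 13.39. All 4 high glucose + Hsp70 libraries lay below all 3 normal glucose libraries, whereas the high glucose libraries overlapped both other groups.

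Vegfb (chr19:6982473-6987651, minus strand), a Flt1 ligand linked to fatty acid handling and vessel survival, varied more. It was at 11.10, 10.19, 11.15 and 10.75 in high glucose + Hsp70 (sets 2 to 5), at 11.09, 10.20, 10.48 and 10.73 in high glucose (sets 2 to 5) and at 10.98, 11.03 and 11.23 in normal glucose (sets 3 to 5). The lowest values were those of set 3 in both high glucose arms, and the groups overlapped.

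Vegfc (chr8:54077606-54187096, plus strand), the lymphangiogenic ligand, varied least of the 9 over the 11 libraries (SD 0.12). It read 9.95, 9.82, 9.65 and 9.88 in high glucose + Hsp70, 9.59, 9.83, 9.81 and 9.88 in high glucose and 9.91, 9.81 and 10.01 in normal glucose. The groups overlapped, with the lowest value in set 2 and the highest in set 5. Pgf (chr12:85166635-85177790, minus strand), placental growth factor, was the most variable ligand. Its values were 7.19, 7.94, 9.19 and 8.12 in high glucose + Hsp70, 7.66, 8.04, 8.06 and 8.77 in high glucose and 9.01, 7.85 and 8.11 in normal glucose. The highest library of each group came from a different set, and the groups overlapped.

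Flt1 (chr5:147561604-147726011, minus strand) was highest in 2 normal glucose libraries. It was at 6.99, 6.55, 6.35 and 6.58 in high glucose + Hsp70 (sets 2 to 5), at 7.06, 6.51, 6.53 and 6.68 in high glucose (sets 2 to 5) and at 6.44, 7.39 and 7.73 in normal glucose (sets 3 to 5). The normal glucose libraries of sets 4 and 5 exceeded every other library, and that of set 3 lay among the high glucose arms. The files hold 1 value per gene, so membrane and soluble forms of Flt1 were counted together.

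Kdr (chr5:75932827-75978458, minus strand) was sorted by set. It was at 4.60, 7.44, 2.81 and 2.42 in high glucose + Hsp70, at 3.97, 7.46, 3.01 and 4.05 in high glucose and at 7.23, 3.27 and 3.86 in normal glucose. The 3 high values all came from set 3. Flt4 (chr11:49609263-49652739, plus strand) was at 7.54, 7.50, 6.81 and 6.18 in high glucose + Hsp70, at 7.38, 7.44, 6.56 and 6.41 in high glucose and at 7.36, 6.91 and 6.38 in normal glucose. Its values were high in sets 2 and 3 and low in sets 4 and 5 in both high glucose arms, and high in set 3 and low in sets 4 and 5 in normal glucose, which has no library in set 2.

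Nrp1 (chr8:128358604-128503363, plus strand) was at 11.33, 11.87, 11.88 and 12.01 in high glucose + Hsp70, at 11.47, 11.78, 11.61 and 11.73 in high glucose and at 11.97, 11.33 and 11.83 in normal glucose, and the groups overlapped. Nrp2 (chr1:62703285-62818695, plus strand) was at 14.12, 13.64, 14.02 and 14.36 in high glucose + Hsp70, at 14.26, 13.61, 14.17 and 14.30 in high glucose and at 13.93, 14.36 and 14.60 in normal glucose. In each of sets 3, 4 and 5 the normal glucose library held the highest Nrp2 value. Nrp2 overlaps an antisense gene in the annotation, and the strand setting of the counting is not given in the sources used here, so reads of the 2 strands could not be told apart.

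**Figure D2:**
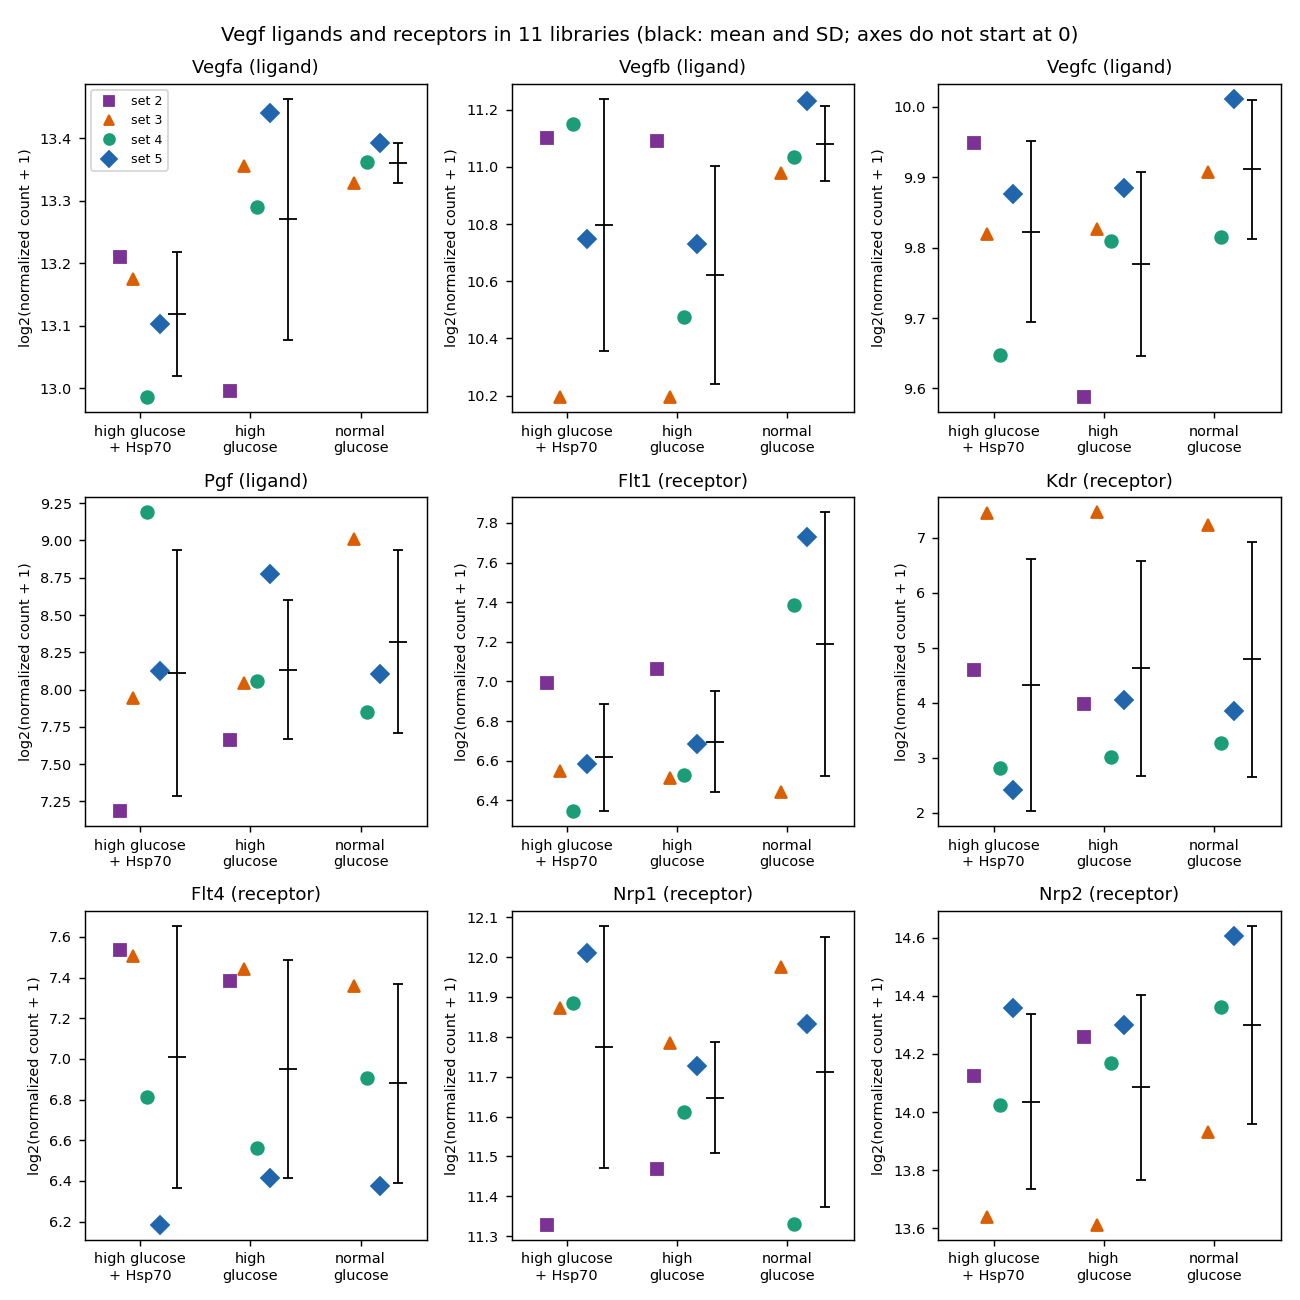
Values of the 9 genes in the 11 libraries, as log2(normalized count + 1), by group from left to right (high glucose + Hsp70, high glucose, normal glucose); marker shape and colour give the file set, and the black bars are group means with the SD. All 4 high glucose + Hsp70 libraries lie below the 3 normal glucose libraries for Vegfa, and the set 3 libraries lie at 7.23 to 7.46 for Kdr, above all others.

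High glucose was first set against normal glucose. No ligand or receptor passed the test: limma called 0 of 9, where it called 0 of 18248 genes (0%), and 185 genes (1.01%) but none of the 9 had an unadjusted p under 0.05. All 4 ligands had lower means in high glucose than in normal glucose, as did 4 of the 5 receptors. The median difference was -0.16 for the ligands and -0.16 for the receptors, beside -0.01 over all genes tested; these 9 share libraries, and the medians carry no test. With the file set as a block the medians were -0.0919 for the ligands, with 3 of 4 below 0, and -0.102 for the receptors. The widest ligand difference was that of Vegfb, at 10.62 ± 0.38 in high glucose (SD, n = 4) and 11.08 ± 0.13 in normal glucose (n = 3), a log2 difference of -0.46 (SE 0.25, 95% interval -1.01 to 0.09, adjusted p = 1.00). Among the receptors it was that of Flt1, at 6.70 ± 0.26 in high glucose and 7.19 ± 0.67 in normal glucose, a difference of -0.49 (SE 0.30, interval -1.14 to 0.16, adjusted p = 1.00).

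Within the sets, 3 of the 9 genes were lower in high glucose in each of sets 3, 4 and 5: Vegfb, Vegfc and Nrp2. Of all genes tested, 14.3% were lower and 11.3% higher in every set, and none of the 9 was higher in every set. Vegfb differed by -0.78, -0.56 and -0.50 in sets 3, 4 and 5, Nrp2 by -0.32, -0.19 and -0.31, and Vegfc by -0.08, -0.01 and -0.13. With the file set as a block, Vegfb differed by -0.59 (SE 0.17, interval -0.97 to -0.21), which is 0.67-fold, with unadjusted p = 0.00644 and adjusted p = 1.00 by limma, so that it did not pass. Flt1 then gave -0.61 (unadjusted p = 0.0337) and Nrp2 -0.26 (unadjusted p = 0.0432). That is 3 of 9 genes at an unadjusted p under 0.05 with the block, where 3.49% of all genes were, and 0 of them passed after adjustment.

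Flt1 did not differ alike in all sets: the difference was 0.07 in set 3, -0.86 in set 4 and -1.05 in set 5. Without set 3 the difference between high and normal glucose was -0.80 (SE 0.29, adjusted p = 1.00 by limma). Pgf ran in both directions, at -0.97, 0.21 and 0.67 in sets 3, 4 and 5, and its 95% interval over the libraries was -1.14 to 0.76. Kdr differed by 0.23, -0.26 and 0.19 within the sets, and its interval was -3.19 to 2.86 without the block and, once the block was added, -1.04 to 0.83. Intervals of Vegfa (-0.41 to 0.23), Vegfc (-0.43 to 0.16) and Nrp1 (-0.50 to 0.37) were narrower, and that of Flt4 was -0.77 to 0.91. No gene of the 9 had high glucose libraries that were all above or all below the normal glucose libraries, where 1.32% of genes had them all below and 1.06% all above. Summed normalized counts of the markers overlapped between the groups: endothelial markers ran from 8196 to 12670 in high glucose + Hsp70, 8246 to 11960 in high glucose and 7402 to 9115 in normal glucose, and macrophage and leukocyte markers from 553.9 to 4927 in high glucose + Hsp70, 598.9 to 5894 in high glucose and 557.7 to 5193 in normal glucose. Every group held a library of set 3, where macrophage and leukocyte markers were high, so the ranges of those markers had to overlap. The endothelial sum was 8980 to 9115 in set 3, inside the 7402 to 12670 of the other sets. Yet 17 of the 20 endothelial markers were called higher in set 3, so that sum does not follow most of them. Its overlap therefore does not show that the groups held alike shares of endothelial cells. The part of the markers in the differences was not tested.

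The second comparison asks whether Hsp70 altered the system in high glucose. Here too limma called 0 of 9 and 0 of 18248 genes (0%), with 136 genes (0.745%) but none of the 9 at an unadjusted p under 0.05. Vegfa was at 13.12 ± 0.10 in high glucose + Hsp70 and 13.27 ± 0.19 in high glucose (SD, n = 4 each), a difference of -0.15 (SE 0.14, interval -0.45 to 0.14, adjusted p = 1.00). It was 0.21 higher in set 2 and lower in the other 3 sets, by -0.18, -0.30 and -0.34. Vegfb differed by 0.18 (SE 0.23, interval -0.33 to 0.68), at 0.68 in set 4 and 0.0091, -0.0011 and 0.0178 in sets 2, 3 and 5. Vegfc differed by 0.05 (interval -0.22 to 0.32) and Pgf by -0.02 (interval -0.91 to 0.86), with Pgf at 1.13 in set 4 and at -0.47, -0.10 and -0.65 in sets 2, 3 and 5.

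Receptor differences between high glucose + Hsp70 and high glucose were small beside their errors. Nrp1 gave 0.13 (SE 0.19, interval -0.28 to 0.53) and was higher with Hsp70 in 3 of 4 sets. Nrp2 gave -0.05 (interval -0.52 to 0.42), Flt1 -0.08 (interval -0.68 to 0.52) and Flt4 0.06 (interval -0.72 to 0.84). Kdr gave -0.30 (interval -3.10 to 2.49, narrowing to -1.14 to 0.53 once the file set was a block) and ran from 0.63 in set 2 to -1.63 in set 5. No gene of the 9 moved in 1 direction in all 4 sets, where 4.42% of genes were lower and 3.89% higher in all 4. No gene of the 9 was separated between the groups, where 0.323% of genes had all libraries with Hsp70 below and 0.285% all above. With the block, none of the 9 had an unadjusted p under 0.05, where 1.67% of genes did. Without high glucose + Hsp70 replicate 2 the count of genes called was 3, none of them among the 9.

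The third comparison sets high glucose + Hsp70 against normal glucose and shares its libraries with the other 2. Vegfa was at 13.12 ± 0.10 in high glucose + Hsp70 (SD, n = 4) and 13.36 ± 0.03 in normal glucose (n = 3), a difference of -0.24 (SE 0.15, interval -0.56 to 0.08), or 0.85-fold. It was the 1 gene of the 9 whose groups did not overlap, which held for 1.24% of all genes in this direction and 0.482% in the other, and it was lower within sets 3, 4 and 5, by -0.15, -0.38 and -0.29. It did not pass (adjusted p = 1.00 by limma): 0 of 9 and 0 of 18248 genes (0%) were called, and 178 genes (0.975%) but none of the 9 had an unadjusted p under 0.05. Without high glucose + Hsp70 replicate 2 the count was 3, none of them among the 9.

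Vegfc and Nrp2 were also lower in each of the 3 sets, where 9.92% of genes were, and none of the 9 was higher in all 3, where 7.62% of genes were. Nrp2 differed by -0.29, -0.34 and -0.25 within sets 3, 4 and 5, and Vegfc by -0.09, -0.17 and -0.14. Flt1 was at 6.62 ± 0.27 in high glucose + Hsp70 and 7.19 ± 0.67 in normal glucose, a difference of -0.57 (SE 0.30, interval -1.22 to 0.08), with 0.10, -1.04 and -1.15 in sets 3, 4 and 5. Without set 3 it gave -0.92 (SE 0.29, adjusted p = 1.00 by limma). With the file set as a block, Flt1 gave -0.69 (unadjusted p = 0.0198), Nrp2 -0.31 (unadjusted p = 0.0208) and Vegfb -0.41 (unadjusted p = 0.0359), all with adjusted p = 1.00. These 3 of 9 compare with 3.22% of all genes at an unadjusted p under 0.05 in that fit. Of the other genes, Vegfb gave -0.28 (interval -0.83 to 0.27) without the block, Pgf -0.21 (-1.16 to 0.74), Kdr -0.47 (-3.49 to 2.55, or -1.34 to 0.53 around -0.41 with the block), Flt4 0.13 (-0.71 to 0.97) and Nrp1 0.06 (-0.38 to 0.50).

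**Figure D3:**
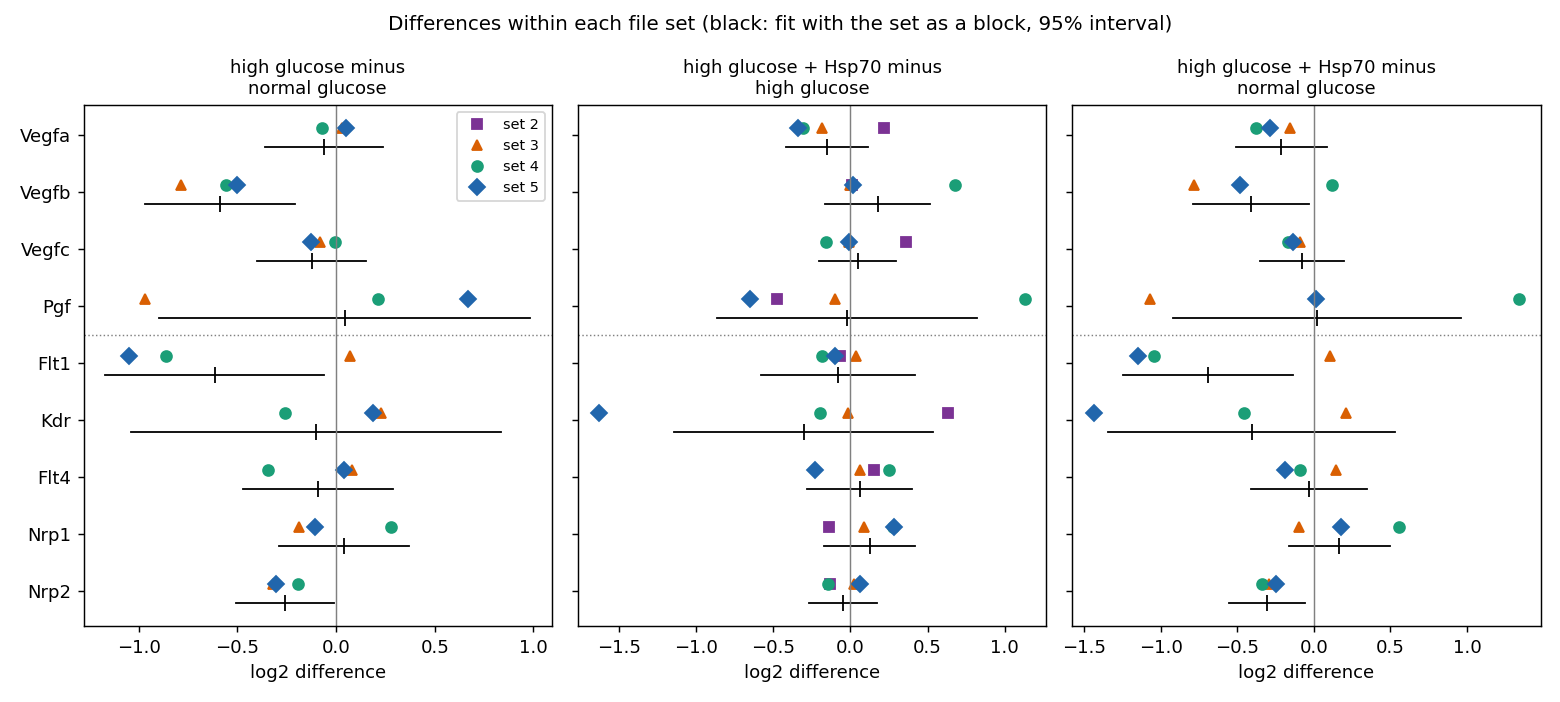
Log2 differences of each gene within each file set for the 3 comparisons (high glucose minus normal glucose, high glucose + Hsp70 minus high glucose, high glucose + Hsp70 minus normal glucose); markers are single sets, and black bars are the fit with the set as a block with its 95% interval. Vegfb is below 0 in each of the 3 sets for high glucose minus normal glucose, at -0.78, -0.56 and -0.50, and Flt1 is below 0 in sets 4 and 5 only.

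Sets differed more than groups. Between set 3 and the mean of the other sets, in a fit that keeps the treatment group as a term, limma called 2317 of 18248 genes (12.7%), 1499 higher (8.21%) and 818 lower (4.48%). Of the 9 genes, 2 were higher in set 3, Kdr and Flt4, and 2 were lower, Nrp2 and Vegfb. The count was 939 without high glucose replicate 2, 1187 without high glucose + Hsp70 replicate 2 and 3805 without high glucose + Hsp70 replicate 3. Set 3 is a single set out of 4, so the p-values do not show how far sets vary from one another, and the contrast was chosen with earlier results of these data known. What a set stands for is not given in the labels.

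Kdr was higher in set 3 by 3.76 on the log2 scale (SE 0.36, interval 2.95 to 4.57, adjusted p = 0.000166 by limma), or 13.6-fold. Its normalized counts were 149.3 to 174.9 in the 3 libraries of set 3, against 4.35 to 23.2 in the other 8, with no overlap, which held for 8.14% of all genes in this direction. Flt4 was higher by 0.58 (SE 0.15, adjusted p = 0.0301), but the 2 libraries of set 2 were as high: Flt4 was at 7.36 to 7.54 in sets 2 and 3, against 6.18 to 6.91 in sets 4 and 5. That grouping of sets was chosen after the values were seen, and 1.28% of genes were separated in the same way and 1.48% in the other direction. The call of Flt4 was lost when any of 8 libraries was left out (adjusted p 0.0509 to 0.206): normal glucose replicates 1 and 3, high glucose replicates 1, 2 and 3, and high glucose + Hsp70 replicates 1, 2 and 4. Sets 4 and 5 also had the same 2753 genes at 0 in all 6 libraries, 11.9% of the genes, against 21.2% to 25.9% in sets 2 and 3. The part of file preparation in Flt4, and in low values such as those of Kdr and endothelial markers outside set 3, was not tested.

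Nrp2 was lower in set 3 by -0.57 (SE 0.10, interval -0.78 to -0.35, adjusted p = 0.00404 by limma), or 0.67-fold, at normalized counts of 12520 to 15640 in set 3, against 16650 to 24910 elsewhere. The 2 ranges did not overlap, which held for 3.85% of all genes in this direction; without high glucose replicate 2, a set 3 library, the adjusted p was 0.0663. Vegfb was lower in set 3 by -0.56 (SE 0.15, adjusted p = 0.0341), a call lost when any of 7 libraries was left out (adjusted p 0.0579 to 0.223): normal glucose replicate 3, high glucose replicates 1, 2 and 4, and high glucose + Hsp70 replicates 1, 2 and 4. Flt1 gave -0.50 (SE 0.21, adjusted p = 0.184), Nrp1 0.27 (SE 0.13, adjusted p = 0.229), Pgf 0.29 (SE 0.36), Vegfa 0.06 (SE 0.12) and Vegfc 0.02 (SE 0.11), none of which passed. Of the marker lists, 17 of 20 endothelial, 11 of 12 macrophage and leukocyte, 6 of 8 Schwann cell, 6 of 12 pericyte and smooth muscle, 5 of 12 fibroblast and 1 of 5 lymphatic endothelial genes were higher in set 3, and 1 endothelial, 1 pericyte and smooth muscle and 1 fibroblast gene were lower. Summed macrophage markers were at normalized counts of 4927 to 5894 in set 3, against 553.9 to 886.0 elsewhere, and summed endothelial markers at 8980 to 9115, against 7402 to 12670. Their part in the values of Kdr, Flt4, Nrp2 and Vegfb was not tested.

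The order of Flt1 and Kdr in set 3 was the reverse of that in the other sets. Per kilobase, the ratio of Flt1 to Kdr was 0.460, 0.443 and 0.495 in set 3 (high glucose + Hsp70, high glucose, normal glucose). Outside set 3 it was 4.67, 11.4 and 18.7 in high glucose + Hsp70, 7.76, 11.1 and 5.63 in high glucose and 16.5 and 13.4 in normal glucose. Kdr exceeded Flt1 in the 3 libraries of set 3, and Flt1 exceeded Kdr in the other 8. The ratio of Nrp2 to Nrp1 was 1.82, 1.90 and 2.08 in set 3 and 2.36 to 4.37 elsewhere, so Nrp2 exceeded Nrp1 in all 11 libraries. The ratio of Vegfa to Vegfb was 1.60, 2.93, 1.32 and 1.90 in high glucose + Hsp70 (sets 2 to 5), 1.39, 3.32, 2.61 and 2.43 in high glucose and 1.89, 1.86 and 1.66 in normal glucose (sets 3 to 5). In sets 3, 4 and 5 this ratio was higher in high glucose than in normal glucose.

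**Figure D4:**
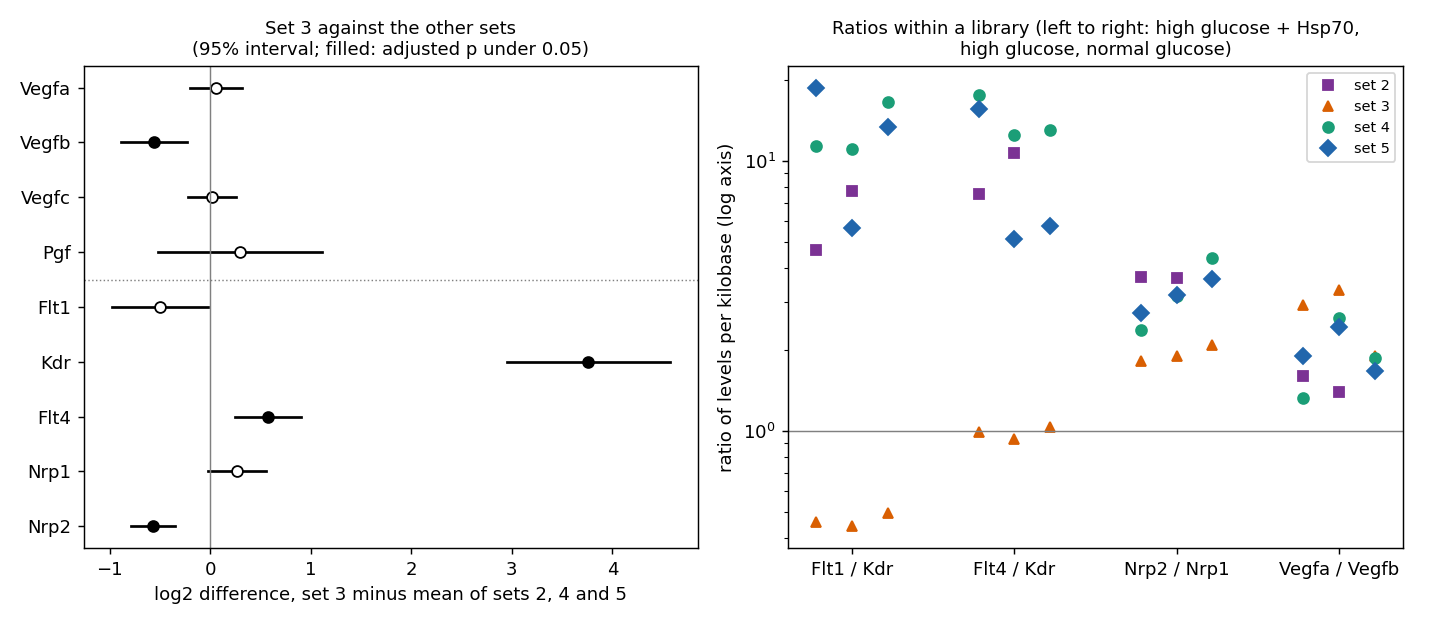
Left, log2 difference of each gene between set 3 and the mean of sets 2, 4 and 5 with its 95% interval, filled where the adjusted p is under 0.05; right, ratios of levels per kilobase within each library (log axis), by group from left to right and coloured by set. Kdr stands at 3.76 on the left, and the ratio of Flt1 to Kdr is 0.443 to 0.495 in set 3, against 4.67 to 18.7 in the other libraries.

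Genes around the Vegf system were described by 6 lists, and 0 of their genes passed in the 3 group comparisons. Signal transducers of the receptors, 30 genes measured, had median differences of 0.02 between high and normal glucose, 0.01 between high glucose + Hsp70 and high glucose and 0.03 between high glucose + Hsp70 and normal glucose. The protein kinase C gene Prkcb gave -0.55 (SE 0.35) in high against normal glucose, and the Src family kinase gene Fyn 0.39 (SE 0.22) in high glucose + Hsp70 against high glucose. Genes known to be induced by Vegf, 23 measured, had medians of -0.05, 0.02 and -0.06 in the same 3 comparisons. Among them the transcription factor Egr2 gave -1.41 (SE 0.65) between high and normal glucose and 1.10 (SE 0.60) between high glucose + Hsp70 and high glucose, comparisons that share the high glucose libraries.

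Regulators of Vegfa expression, 18 genes measured, had medians of -0.02, -0.09 and -0.09. The oxygen sensor Egln3 gave -0.15 (SE 0.16) in high against normal glucose and -0.25 (SE 0.16) in high glucose + Hsp70 against normal glucose. Matrix and extracellular regulators, 18 of 20 measured, had medians of -0.07, -0.02 and -0.07. Figf gave 0.23 (SE 0.16) with Hsp70 against high glucose, and the angiogenesis inhibitor Vash1 0.85 (SE 0.51) in high against normal glucose. Semaphorins and plexins, 12 measured, had medians of 0.11, -0.01 and -0.07. Plxnd1, a semaphorin receptor of vessels, gave -0.29 (SE 0.16) in high glucose + Hsp70 against normal glucose. Other angiogenic receptor tyrosine kinases, 12 of 13 measured, had medians of -0.14, 0.03 and -0.02, and Fgfr3, a fibroblast growth factor receptor, gave 1.33 (SE 0.52, unadjusted p = 0.0254, adjusted p = 1.00) with Hsp70 against high glucose. It was the 1 gene of these lists at an unadjusted p under 0.05 in a group comparison without the block.

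With the file set as a block, again 0 genes of these lists passed. Unadjusted p-values under 0.05 were then held between high and normal glucose by 4 of the 23 Vegf-induced genes, 1 of 30 signal transducers and 1 of 18 matrix regulators, where 3.49% of all genes had one. Between high glucose + Hsp70 and high glucose they were held by 1 signal transducer, 1 Vegf-induced gene and 1 receptor kinase, where 1.67% of all genes had one, and between high glucose + Hsp70 and normal glucose by 1 signal transducer, 2 Vegf-induced genes and 1 matrix regulator, where 3.22% had one. The block also moved medians against normal glucose: for high glucose the Vegf-induced genes were at 0.000427, semaphorins and plexins at -0.0204, other receptor kinases at -0.0502 and signal transducers at 0.00758. For high glucose + Hsp70 against normal glucose, semaphorins and plexins were at 0.00406, other receptor kinases at 0.0975, Vegf-induced genes at -0.102 and regulators of Vegfa expression at -0.043. Semaphorins and plexins changed the sign of their median in both comparisons, Vegf-induced genes for high against normal glucose and other receptor kinases for high glucose + Hsp70 against normal glucose.

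Between set 3 and the other sets, where 8.21% of all genes were higher and 4.48% lower, the lists held called genes in shares that can be read against those. Of the 23 Vegf-induced genes, 9 were higher and 2 lower, with a median difference of 0.34, beside -0.00206 over all genes tested. Esm1, an endothelial proteoglycan of sprouting vessels, was 1.91 higher (SE 0.20, adjusted p = 0.000264), Angpt2, the Tie2 ligand angiopoietin-2, 1.85 higher (SE 0.21, adjusted p = 0.000382), Nr4a2, a nuclear receptor, 1.66 higher (adjusted p = 0.000426) and Apln, the peptide apelin, 0.96 higher (adjusted p = 0.000213). Of 30 signal transducers 2 were higher and 2 lower, close to the shares over all genes: Nos3 by 3.59 (SE 0.51, adjusted p = 0.00162) and the small heat shock protein Hspb1 by 0.55, and, lower, the phosphoinositide 3-kinase subunit Pik3r1 by -0.79 and Prkcb by -0.86. Of 18 regulators of Vegfa expression 2 were higher, Epas1 (HIF-2 alpha) by 1.68 (SE 0.15, adjusted p = 9.67e-05) and Egln1 by 0.33, and none was lower.

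Semaphorins and plexins gave 1 higher and 3 lower of 12 in set 3. Sema3g was 3.96 higher (SE 0.45, adjusted p = 0.000415), and Sema3f (-0.86) and Sema3a (-0.89), secreted neuropilin ligands, and the receptor Plxna1 (-0.73) were lower. Other receptor kinases gave 3 higher and 2 lower of 12, with Tie1 at 5.72 and Kit at 4.76 among the higher and Epha2 at -0.69 and Met at -0.79 the lower. Matrix and extracellular regulators gave 2 higher, near the share over all genes, and 3 lower of 18, with Vash1 at 0.81 and Gpc1 at 0.54 higher and Vash2 at -1.21 and Mmp2 at -0.41 among the lower. Endothelial marker genes moved with set 3 as given above, and Nos3, Tie1 and Tek stand in the endothelial marker list as well. Csf1r, Pdgfra and Pdgfrb of the receptor kinase list also stand in the macrophage, fibroblast and pericyte lists, in that order.

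After the mean of each set was taken out, the genes whose values followed each member most closely over the 11 libraries were found among about 8820 well expressed genes, as a description. Some of these libraries share a set or a treatment, and their depth in reads is unknown. Taking out set means also leaves fewer free values per gene than there are libraries. With so many genes searched over 11 libraries, high values of r can arise from the search alone, and they carry no test. Vegfa was followed most closely by Ptgr2 (Pearson r = 0.962, Spearman rho = 0.955), then Mmp13 and Lbhd1. Vegfb was followed by Uap1l1 (r = 0.980, rho = 0.964), Cmtm3 and Vat1, Vegfc by Adgra2 (r = 0.950, rho = 0.873), Cldnd1 and Socs5, and Pgf by Fam193b (r = 0.991, rho = 0.991), Gbp5 and Cwc27. Among the receptors, Flt1 was followed by Nceh1 (r = 0.974, rho = 0.918), Nedd4l and Npc1, Kdr by Tmem129 (r = 0.984, rho = 0.973), Fbxl4 and Snrpg, and Flt4 by Tpra1 (r = 0.943, rho = 0.809), Mrps2 and Gatad1. Outside set 3 Kdr was at normalized counts of only 4.35 to 23.2, so its correlations rest largely on low counts. Nrp1 was followed by Tcf7l1 (r = 0.984, rho = 0.973), Rps15 and Rab3d, and Nrp2 by Cspg4 (r = 0.961, rho = 0.891), Steap3 and Fyb.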

How the data were processed

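The deposited values, 1 file per library, are log2 values with no counts or reads beside them, taken here as the log2 of a normalized count plus 1 because none lies below 0; TopHat, edgeR and mm10 appear, without versions, in the submitters' processing notes, and the labels' protocols name Trizol and a stranded SMARTer kit. How the authors normalized and which annotation they used is not given in the sources here, so the depth in reads is unknown. The totals given above are sums of values already normalized and do not measure that depth. Each file held 23282 rows; of repeated symbols the highest copy was kept (44 dropped), which left 23238 genes, of which 18248 reached a normalized count of 1 in 3 or more libraries and were tested.

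Differences were fitted to the log2 values of all 11 libraries in R 4.3.3 (limma 3.58.1), with 3 group means, a trended and robust prior and Benjamini-Hochberg adjustment over all genes tested at 0.05. The contrast of set 3 added the file set to the group. Fits were checked on simulated data whose noise was independent between libraries, so the check does not cover libraries that correlate within a set. Positions and lengths came from GENCODE M21 (95.5% of symbols matched), levels per kilobase from the longest coding transcript; all 9 genes matched there and in the RefSeq promoter table, and the transcribed part of that table was not used. Figures were drawn with matplotlib 3.10.9.

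Once group means were taken out, libraries of 1 file set correlated at 0.594 in set 3, 0.302 in set 4 and 0.285 in set 5 between high and normal glucose, so the file set was tried as a block for that comparison. For high glucose + Hsp70 and high glucose the correlations were 0.422, 0.691, 0.0586 and 0.262 in sets 2 to 5, and for high glucose + Hsp70 and normal glucose 0.458, 0.0219 and 0.372, and the block is given there beside the values as well.

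The members, gene lists, tests and naming rules were chosen with earlier results of these data known. All 9 members are named in every comparison, up to 4 genes per list by smallest unadjusted p in that comparison, and 3 most similar genes per member by Pearson correlation.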

Additional observations from a re-analysis of the deposited data

How the results depend on the processing

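The alternatives were the file set or the title number as a block, sets 3 to 5 only, set 3 left out, no filter or a filter at 10, quantile or common-total scaling, a pseudocount of 10, no trended prior and leaving out each replicate, with the union of exons as length added after the values were seen. No member passed in any group comparison under any of 21 alternatives; 12 of the 27 differences kept their direction under all 21 and 15 reversed under at least 1. Paired by file set, libraries correlated above 0 in every pair of each comparison. The lowest values were those of set 4, at 0.0586 between high glucose + Hsp70 and high glucose and 0.0219 between high glucose + Hsp70 and normal glucose. With the replicate block by file set 0 genes were called in each comparison. By title number, correlations between high and normal glucose were -0.224, -0.357 and 0.137, and those between high glucose + Hsp70 and normal glucose -0.24, -0.26 and -0.127. Counts of genes called became 3 in both comparisons with Hsp70 without high glucose + Hsp70 replicate 2 (range 0 to 3 over replicates left out). For set 3 they were 939 without high glucose replicate 2, 1187 without high glucose + Hsp70 replicate 2 and 3805 without high glucose + Hsp70 replicate 3 (range 939 to 3805).

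Of the reversals between high and normal glucose, with the file set as a block Pgf gave 0.0443, Flt4 -0.0896 and Nrp1 0.0397, and with the title number as a block Kdr gave 0.25; in sets 3 to 5 only Vegfa gave 0.0014, Kdr 0.0532 and Flt4 -0.074; without set 3 Pgf gave 0.19, Kdr 0.113 and Nrp1 0.0209. With 1 replicate left out, values ran for Vegfa from -0.147 to 0.0014, Pgf -0.43 to 0.16, Kdr -1.11 to 1.06, Flt4 -0.18 to 0.31 and Nrp1 -0.255 to 0.0665. Between high glucose + Hsp70 and high glucose, sets 3 to 5 only gave -0.0589 for Vegfc and 0.13 for Pgf, and Pgf was 0.0022 without set 3; with 1 replicate left out, Vegfc ran from -0.0168 to 0.105, Pgf -0.38 to 0.28, Flt1 -0.204 to 0.0428, Kdr -1.34 to 0.64, Flt4 -0.12 to 0.33 and Nrp2 -0.206 to 0.0842. Between high glucose + Hsp70 and normal glucose, Pgf was 0.0204 and Flt4 -0.0302 with the file set as a block, Pgf 0.10 and Flt4 -0.0458 in sets 3 to 5 only and Pgf 0.19 without set 3; with 1 replicate left out, Pgf ran from -0.57 to 0.13, Kdr -1.51 to 0.75, Flt4 -0.12 to 0.40 and Nrp1 -0.13 to 0.21. For set 3 against the rest, Pgf was -0.0182 in sets 3 to 5 only, and with 1 replicate left out Vegfa ran from -0.0197 to 0.143, Vegfc -0.0471 to 0.0931 and Pgf -0.17 to 0.58. The cause of these reversals was not tested.

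Set 3 calls held for Kdr under all 19 alternatives (adjusted p 1.72e-05 to 0.00606) and for Nrp2 under 18; those of Vegfb and Flt4 were lost under 12 and 9, with adjusted p up to 0.223 and 0.206. Per kilobase of the union of exons, Vegfa was at 2270, Nrp2 1539, Nrp1 346.9 and Flt1 8.57. Low counts limit Kdr outside set 3.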
